A study of Mus musculus with 4 samples.

Results

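The genes described here copy DNA and supply S phase, the part of the cell cycle in which the genome is replicated. A list of 39 such genes was followed in embryoid bodies (EBs), floating clumps of differentiating stem cells, grown from the R1 line of mouse embryonic stem cells. Members were found by gene symbol: a probe set was taken where the platform annotation gave it that symbol alone, and the brightest was used where a gene had several. This gave 37 members of the 22180 genes with such a probe set. For Rfc4, a subunit of the clamp loader, and Ccne2, a G1/S cyclin, the annotation gave only probe sets named for 2 genes, so they were not analysed here.

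The study has 4 arrays, 1 for each treatment. Feeder-depleted cells were kept for 18 h without LIF, the cytokine that holds stem cells undifferentiated, and the groups received plain EB medium, the solvent DMSO, GSK-J5 or GSK-J4, both compounds at 1.88 µM. All 4 groups thus share the line, the loss of LIF and the time. GSK-J4 is an ester prodrug of an inhibitor of the KDM6 histone demethylases, and GSK-J5, which the labels call a vehicle compound, is the ester of its pyridine regioisomer. EB medium, DMSO and GSK-J5 are called the controls below. The series title poses the question of a DNA damage response to KDM6 inhibition during differentiation. The self-renewing cells it also mentions were not analysed here.

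Replication is prepared in G1, when the origin recognition complex, Cdc6 and Cdt1 load the MCM2-7 helicase onto origins, a step known as licensing. At the start of S phase Cdc45 and the GINS complex turn that helicase on, and polymerases, the sliding clamp PCNA and its loader RFC copy the strands, while ribonucleotide reductase and thymidine enzymes supply nucleotides. E2F transcription factors drive many of these genes, and the pocket proteins Rb1, Rbl1 and Rbl2 hold E2F in check. Mouse embryonic stem cells divide fast, with a short G1 and most cells in S phase.

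The promoters of the members are shown because binding sites for E2F are the feature this gene class is known for. Windows of 300 bases, from 250 before to 50 after each annotated gene start, were taken from RefSeq (GRCm38.p6), and 32 of the 39 members had at least 1 (34 windows). Not in the table were Gins1, Gins2, Gins4, Mcm4, Rfc2, Prim2 and Ccne2. E2F letters were searched as TTNNCGC, where each N is G or C, on both strands, with overlapping matches joined. They stood in 20 of the 34 member windows (58.8%), against 9.57% of all 32851 windows and 12.1% of those of protein-coding genes. The share was not particular to the members: of 82 windows of other replication genes, listed below, 39 (47.6%) held them. A match is a string of letters, not a measured binding site. Of the 6 windows below, Tk1, Cdc6 and Rfc3 belong to members that read lower in GSK-J4 than in all controls, Cdt1 and Pola1 to members that read higher, and Mcm5 to a member inside the control range. Capitals mark E2F letters. The windows lie at chr11:117825965-117826264 (Tk1, minus strand), chr11:98907901-98908200 (Cdc6, plus strand), chr5:151651159-151651458 (Rfc3, minus strand), chr8:75109259-75109558 (Mcm5, plus strand), chr8:122567765-122568064 (Cdt1, plus strand) and chrX:93632106-93632405 (Pola1, minus strand).
Tk1: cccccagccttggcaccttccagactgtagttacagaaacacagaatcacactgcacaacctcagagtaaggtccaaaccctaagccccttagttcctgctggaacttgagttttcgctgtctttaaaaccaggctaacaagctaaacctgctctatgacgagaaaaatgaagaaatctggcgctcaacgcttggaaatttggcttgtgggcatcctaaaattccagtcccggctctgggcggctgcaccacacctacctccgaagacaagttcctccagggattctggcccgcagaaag
Cdc6: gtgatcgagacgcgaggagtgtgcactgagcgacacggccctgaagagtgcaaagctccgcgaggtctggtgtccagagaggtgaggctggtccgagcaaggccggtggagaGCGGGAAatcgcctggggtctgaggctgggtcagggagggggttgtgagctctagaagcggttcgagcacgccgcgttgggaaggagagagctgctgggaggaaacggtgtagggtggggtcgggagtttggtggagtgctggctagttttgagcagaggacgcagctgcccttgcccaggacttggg
Rfc3: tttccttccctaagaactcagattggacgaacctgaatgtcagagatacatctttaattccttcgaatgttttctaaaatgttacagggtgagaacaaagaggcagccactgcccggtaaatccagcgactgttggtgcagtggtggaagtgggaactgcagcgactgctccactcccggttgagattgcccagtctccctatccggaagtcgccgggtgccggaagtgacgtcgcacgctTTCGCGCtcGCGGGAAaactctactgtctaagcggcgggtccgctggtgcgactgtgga
Mcm5: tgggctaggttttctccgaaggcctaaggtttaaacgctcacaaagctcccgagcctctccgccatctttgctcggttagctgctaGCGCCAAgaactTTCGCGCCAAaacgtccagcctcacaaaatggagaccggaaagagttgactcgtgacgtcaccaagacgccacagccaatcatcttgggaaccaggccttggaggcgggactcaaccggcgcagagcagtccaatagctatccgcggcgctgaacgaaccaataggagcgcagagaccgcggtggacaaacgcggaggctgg
Cdt1: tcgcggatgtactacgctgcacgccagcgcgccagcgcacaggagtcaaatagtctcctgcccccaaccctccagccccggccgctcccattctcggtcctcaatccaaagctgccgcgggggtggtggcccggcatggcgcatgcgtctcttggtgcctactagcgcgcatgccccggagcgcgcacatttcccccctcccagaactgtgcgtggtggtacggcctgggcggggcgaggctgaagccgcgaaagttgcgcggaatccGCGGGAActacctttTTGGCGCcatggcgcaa
Pola1: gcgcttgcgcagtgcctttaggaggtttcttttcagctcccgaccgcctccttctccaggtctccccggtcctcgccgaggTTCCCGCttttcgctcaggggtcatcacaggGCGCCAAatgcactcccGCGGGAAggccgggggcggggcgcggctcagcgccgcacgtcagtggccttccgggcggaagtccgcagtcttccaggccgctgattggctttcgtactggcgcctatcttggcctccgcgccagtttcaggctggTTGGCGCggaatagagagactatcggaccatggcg
Pola1 held 4 separate matches, Mcm5, Cdt1 and Rfc3 2 each, Cdc6 1 and Tk1 none. Counting the first of the 50 bases after the start as 0, the matches of Cdt1 began at 18 and 33, those of Rfc3 at −9 and 0, and that of Cdc6 at −138. The windows of Dut and Ccne1, which also read low in GSK-J4, held none. Those of Cdc45, E2f1, Orc6 and Tyms, which read higher than all controls, held none either. The E2f1 window lies inside the gene, since its letters include protein-coding sequence of E2f1. It cannot show whether a promoter farther upstream holds a match. Of the 13 measured members without a match, 9 lay below all controls and 4 above.

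Letters of other cell cycle motifs were distributed differently. CHR letters, known from promoters of mitotic genes, were searched as TTNGAA with T or C as the N. They stood in 17.6% of member windows, in 19.2% of all windows and in 74.1% of the 27 windows of a list of G2 and mitosis genes. That list had E2F letters in 14.8% of its windows. CCAAT was found in 58.8% of member windows, 77.8% of mitotic windows and 37.4% of all windows. ATTGG, the other strand of CCAAT, can share letters with TTGGCGC. Member windows were richer in G and C, with a median of 61.3% against 52.7% over all windows.

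**Figure D1:**
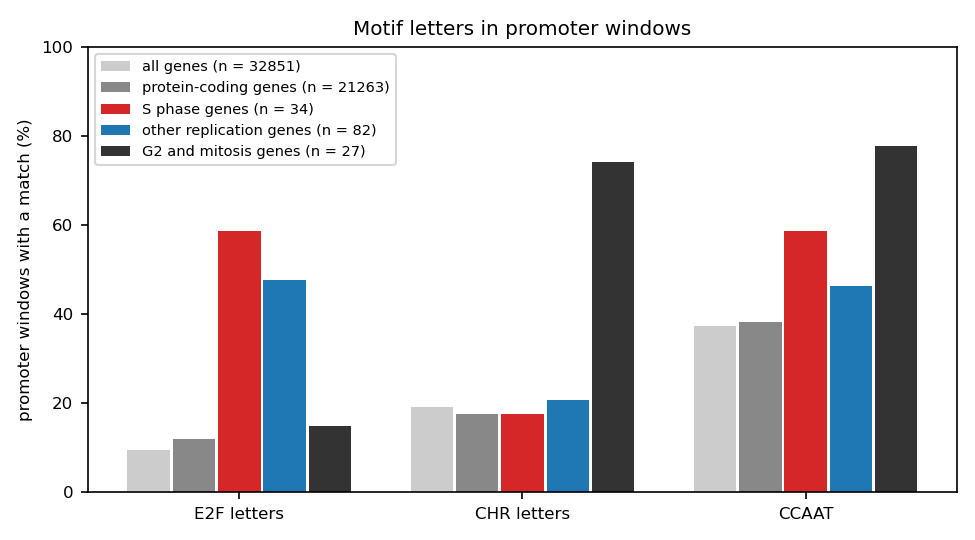
Share of 300-base promoter windows (y axis, %) with E2F, CHR or CCAAT letters on either strand, in all genes, protein-coding genes, the S phase genes, other replication genes and G2 and mitosis genes; n counts windows. E2F letters stand in 58.8% of S phase windows, 47.6% of other replication windows and 9.57% of all. CHR letters stand in 74.1% of mitotic windows.

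As a group the replication genes differed little between GSK-J4 and the controls, with a slight excess of members on the low side. Values are log2 expression as normalized by the authors, so a difference of 1 is 2-fold. Over the 37 members the difference GSK-J4 minus GSK-J5 had a median of −0.05, and the median was −0.04 against DMSO and −0.04 against EB medium. Over all 22180 genes these medians were −0.02, −0.02 and −0.01. The 3 comparisons share the GSK-J4 array and are not independent. In each of them 25 of the 37 members read lower in GSK-J4, where 49.1% of comparably bright genes did so against GSK-J5, 49.5% against DMSO and 52.6% against EB medium. Comparably bright genes are the 5508 whose mean over the arrays is at least that of the dimmest member, Gins1. This comparison group was chosen after the values were seen.

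Measured against all controls at once, 22 of the 37 members (59.5%) lay below the lowest control, 8 (21.6%) above the highest and 7 inside the control range. Among the 5508 comparably bright genes 40% lay below and 36.9% above, and among all 22180 genes 36.3% and 30.6%. The distances were small: 26 members lay within 0.1 of the nearest control, 9 were farther below and 2 farther above. This cut was not counted over other genes, so these counts do not set the members apart. No member reached 1.5-fold, a rule that 0.842% of the 13308 genes past a filter on dim genes met on the low side and 2.21% on the high side; among the comparably bright genes the shares were 0.654% and 1.33%. At 1.2-fold, a log2 distance of 0.263, 4 members (10.8%) were lower and 0 higher, against 6.03% lower and 9.73% higher among the 13308 genes, and 5.57% and 6.94% among the comparably bright ones. All 37 members passed the filter. With 1 array per treatment no difference here has a replicate check or a p-value, and whether the arrays stem from 1 culture is not stated in the labels. In whole embryoid bodies fewer cells in S phase and less RNA per cell cannot be told apart.

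**Figure D2:**
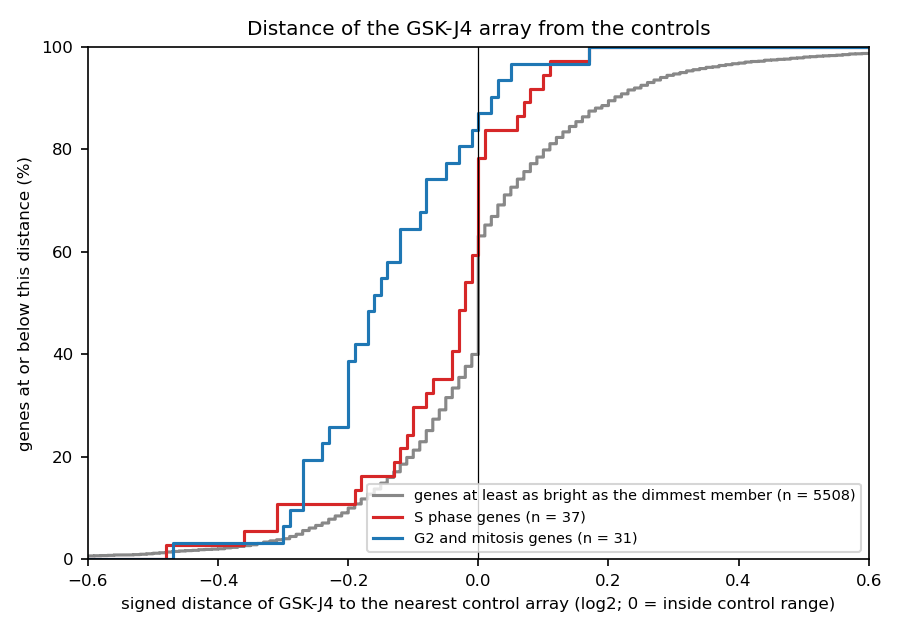
Cumulative share of genes (y axis, %) by the signed log2 distance of the GSK-J4 array to the nearest of the 3 controls (x axis; 0 means inside the control range). The curve of the 37 S phase genes lies at or above that of the 5508 comparably bright genes over nearly the whole axis. It lies below that of the 31 G2 and mitosis genes from about −0.27 to about 0.11 and ends at 0.17.

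Setting each control in turn in the place of GSK-J4 gave smaller distances. Against the other 3 arrays, EB medium was lowest in 3 members and highest in 10, DMSO in 6 and 7, and GSK-J5 in 3 and 9. As member shares these are 8.11% and 27.0%, 16.2% and 18.9%, and 8.11% and 24.3%. Among 5508 comparably bright genes EB medium gave 10.5% and 23.0%, DMSO 25.9% and 18.9%, and GSK-J5 17.2% and 14.6%. No member stood 1.2-fold apart on any control array, and few comparably bright genes did. Of those 5508, EB medium was 1.2-fold lower in 0 and higher in 1, DMSO in 3 and 14, and GSK-J5 in 5 and 4. The farthest members were Pold1 in DMSO (−0.18) and Fen1 in EB medium (0.12). Between the controls the member medians were 0.01 for GSK-J5 minus DMSO, −0.01 for GSK-J5 minus EB medium (0.01 under quantile normalization and loess) and 0.00 for DMSO minus EB medium. The SD of the differences over members was 0.156 for GSK-J4 minus GSK-J5 and 0.074 for GSK-J5 minus DMSO.

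**Figure D3:**
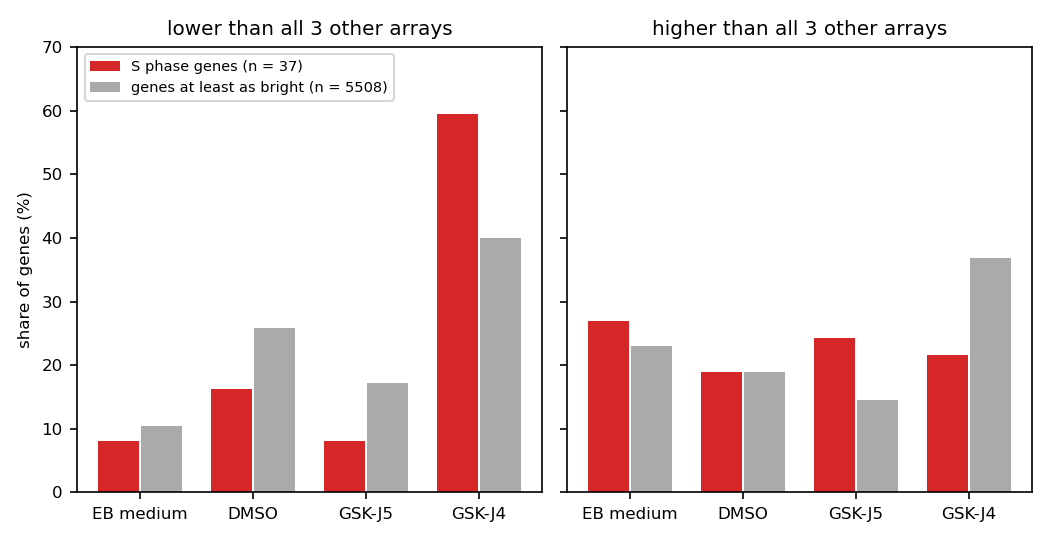
Share of genes (y axis, %) for which the named array reads lower (left) or higher (right) than all 3 other arrays, for the 37 S phase genes and 5508 comparably bright genes. GSK-J4 is the lowest array in 59.5% of the S phase genes and the highest in 21.6%, beside 40% and 36.9% of comparably bright genes.

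Of the 10 licensing genes, Cdc6 alone stood apart by 1.2-fold. Cdc6, the ATPase that helps to load the MCM helicase, read 11.06 in EB medium, 11.04 in DMSO, 11.05 in GSK-J5 and 10.73 in GSK-J4. Its controls lay within 0.02 of each other, and GSK-J4 lay 0.31 below the nearest, or 1.24-fold. Cdt1, the partner of Cdc6 in loading, lay on the other side, at 12.38, 12.35, 12.40 and 12.51 in the same order. That is 0.11 above the nearest control, farther than the control range of 0.05. Orc6, an origin recognition subunit, read 11.80 against 11.65 to 11.74. Orc1, the largest subunit of that complex, read 10.45, inside its control range of 10.41 to 10.51.

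The subunits of the MCM2-7 helicase differed from each control by −0.13 to 0.10. Mcm4 was the lowest at 12.54 against 12.64 to 12.67 in the controls. Mcm2 read 12.74 against 12.77 to 12.86, Mcm3 12.37 against 12.41 to 12.45 and Mcm6 12.16 against 12.18 to 12.23, so these 4 subunits lay below all controls by 0.10 or less. Mcm5 (13.53) lay inside its control range, and Mcm7 read 12.87 against 12.77 to 12.86, a gap of 0.01 that closed after median centring and quantile normalization. The licensing list had a median difference of −0.06 against GSK-J5, −0.01 against DMSO, which turned to 0.01 under loess, and −0.04 against EB medium.

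Factors that activate the helicase were spread around the controls. Cdc45, which binds MCM2-7 when an origin fires, read 9.94 in EB medium, 9.99 in DMSO, 10.05 in GSK-J5 and 10.15 in GSK-J4, the highest of the 4 by 0.10. Gins1 read 9.60, 9.57, 9.51 and 9.38, and Gins2 11.28, 11.26, 11.23 and 11.13, in the same order of arrays. GSK-J4 was the lowest array for these GINS subunits, by 0.13 and 0.10. Gins4 lay 0.01 below its controls and Gins3 inside them. Mcm10, which links the helicase to polymerase alpha, read 11.10 against 11.13 to 11.14.

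**Figure D4:**
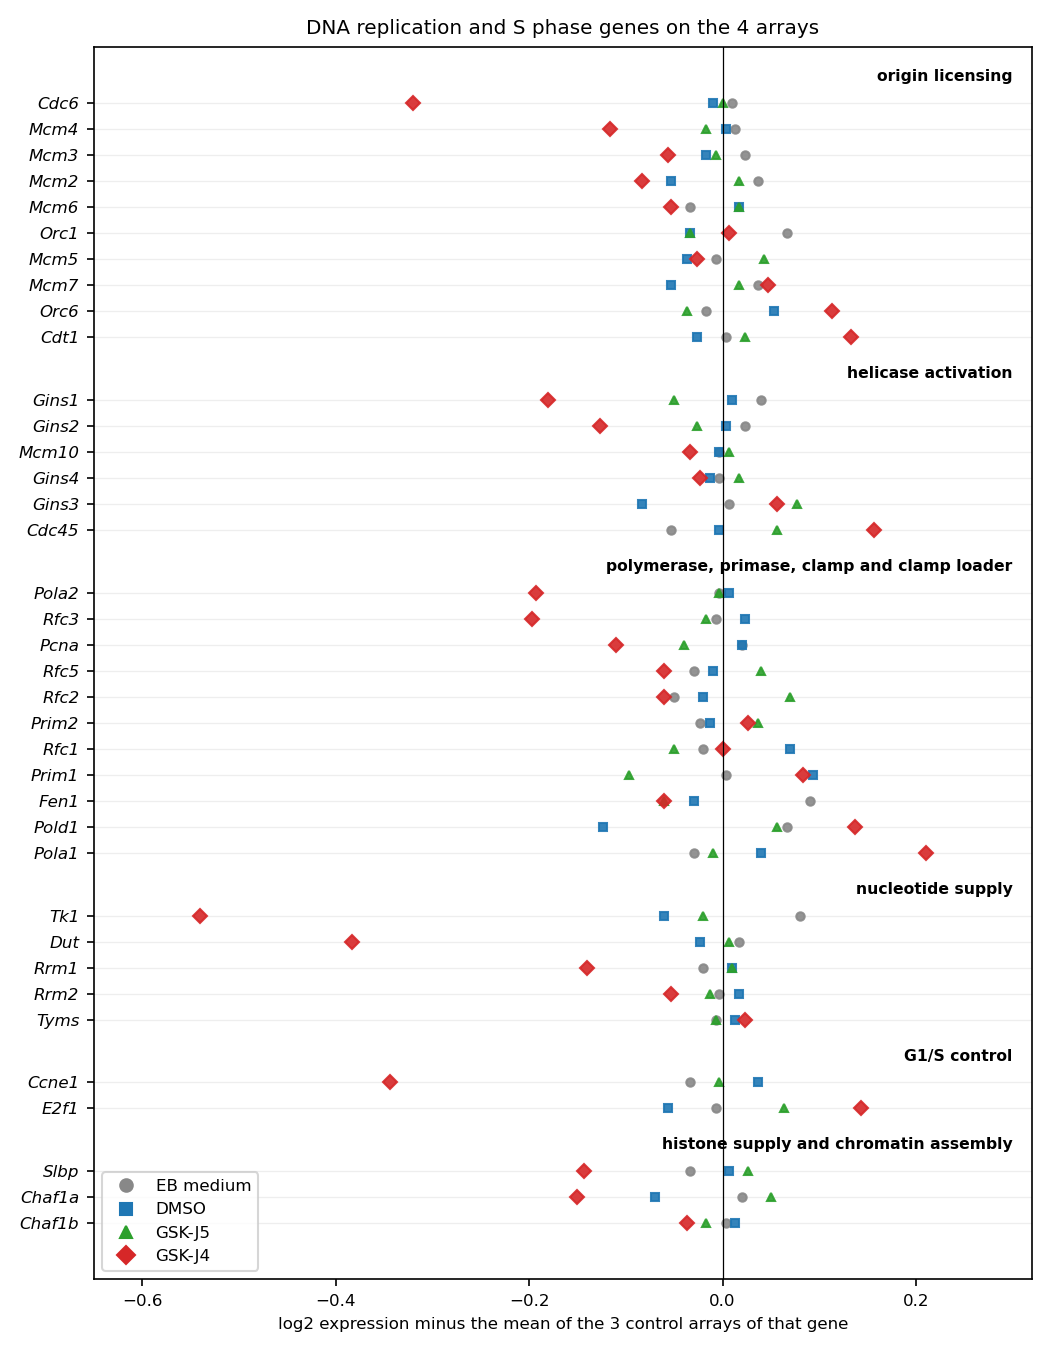
Log2 expression of the 37 measured members on each of the 4 arrays, shown as the difference from the mean of the 3 controls of that gene (x axis), grouped by role (y axis, genes ordered by distance within a group). GSK-J4 (diamonds) stands far to the left for Tk1, Dut, Ccne1 and Cdc6, 0.31 to 0.48 below the nearest control, and to the right for Pola1.

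The 4 genes of the polymerase alpha-primase complex, which starts each new strand, did not shift to the same side. Pola1, its catalytic subunit, read 11.12 in EB medium, 11.19 in DMSO, 11.14 in GSK-J5 and 11.36 in GSK-J4. It was the member farthest above its controls, by 0.17. Pola2, the accessory subunit, read 11.75, 11.76, 11.75 and 11.56, 0.19 below controls that spanned 0.01. The primase genes Prim1 (10.61 against 10.43 to 10.62) and Prim2 (11.51 against 11.46 to 11.52) lay inside their control ranges. Pold1, the catalytic subunit of polymerase delta, read 10.99, 10.80, 10.98 and 11.06, 0.07 above a control range of 0.19.

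The clamp and its loader were level or slightly lower. Pcna read 12.99 in GSK-J4, with controls at 13.06 to 13.12. Rfc3, a loader subunit, read 10.25, 10.28, 10.24 and 10.06 in the order of EB medium, DMSO, GSK-J5 and GSK-J4, 0.18 below the nearest. Rfc5 and Rfc2 lay below their controls by 0.03 and 0.01, and Rfc1 lay inside. Fen1, the nuclease that trims Okazaki fragments, read 10.19 in both GSK-J5 and GSK-J4 against 10.22 in DMSO and 10.34 in EB medium, and its second probe set also lay inside the controls. Over the 11 polymerase, clamp and loader genes the median difference was −0.01 against GSK-J5 (0.00 after median centring), −0.04 against DMSO and −0.01 against EB medium.

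Nucleotide supply held the lowest members. Tk1, thymidine kinase 1, which salvages thymidine in S phase cells, read 10.84 in EB medium, 10.70 in DMSO, 10.74 in GSK-J5 and 10.22 in GSK-J4. GSK-J4 lay 0.48 below the nearest control, or 1.40-fold, at 69.7% of the GSK-J5 level, while the controls spanned 0.14. Dut, the dUTPase that keeps uracil out of DNA, read 11.00, 10.96, 10.99 and 10.60, 0.36 below the nearest control, or 1.28-fold. A second, dimmer probe set of Dut did not show this: it read 7.34 in GSK-J4 against 7.35 to 7.55. With the median of the Dut probe sets the distance was −0.20, short of 1.2-fold.

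The other nucleotide genes lay closer to their controls. Rrm1, the large subunit of ribonucleotide reductase, read 12.32 against 12.44 to 12.47, and Rrm2, the small subunit, 11.77 against 11.81 to 11.84. The second probe set of Rrm2 lay inside its controls. Tyms, thymidylate synthase, which makes thymidylate from scratch, read 10.78 against 10.75 to 10.77. Thymidine salvage and synthesis genes thus lay on different sides of the controls, with Tyms ahead by only 0.01, a gap that closed under loess. The list had a median of −0.15 against GSK-J5, −0.15 against DMSO and −0.12 against EB medium, over 5 genes.

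At the G1/S boundary, Ccne1, the cyclin E1 that activates CDK2, read 12.17 in EB medium, 12.24 in DMSO, 12.20 in GSK-J5 and 11.86 in GSK-J4. It lay 0.31 below the nearest control, 1.24-fold, while the controls spanned 0.07. E2f1, the E2F activator, went the other way, at 10.34, 10.29, 10.41 and 10.49, 0.08 above the nearest control. All 3 histone supply and chromatin assembly genes lay below their controls, Chaf1b by only 0.02. Of the comparably bright genes 40% did so. Slbp, which binds the ends of replication-dependent histone mRNAs, read 11.07 against 11.18 to 11.24. Chaf1a and Chaf1b, subunits of the CAF-1 histone chaperone, read 10.02 against 10.10 to 10.22 and 11.74 against 11.76 to 11.79.

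The members were also split by E2F letters in a promoter window. Of the 18 measured members with a match, 8 lay below all controls and 4 above, with a median GSK-J4 minus GSK-J5 difference of −0.02 and a range of −0.32 to 0.22. Of the 13 without, 9 lay below and 4 above, with a median of −0.10 and a range of −0.52 to 0.15. These values describe the 2 sets and carry no test. Among the 5508 comparably bright genes 40% lay below all controls and 36.9% above. Only windows at the annotated starts were searched, so a member counted as without a match may hold one elsewhere. E2f1 was counted as without a match, though its window includes coding sequence of the gene itself.

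Beyond the members, 75 further genes of the pathway were listed in 5 groups, and 72 were measured. By 1.5-fold 2 of these 72 (2.78%) were higher and 0 lower, near the 2.21% higher among genes past the filter (1.33% of comparably bright genes). Both were pocket protein genes. Rb1, the retinoblastoma protein, read 9.94 in EB medium, 9.96 in DMSO, 9.82 in GSK-J5 and 10.80 in GSK-J4, 1.79-fold above the nearest control. A dim second probe set of Rb1, at 5.68 in GSK-J4, lay 0.63 above its controls but under the filter level of 6.59. Rbl2, the pocket protein p130 of resting cells, read 8.62, 8.50, 8.63 and 9.48, 1.80-fold above. Rbl1, the third pocket protein, was inside its controls (9.83 against 9.82 to 9.96). The list of other G1/S genes also held E2f6, a repressor E2F (0.29 above the nearest control), and on the low side the phosphatase gene Cdc25a (−0.26), the E2F repressor gene E2f8 (−0.25) and Skp2, a subunit of the ubiquitin ligase for p27 (−0.25). Of its 16 genes 10 (62.5%) lay below all controls and 4 (25.0%) above, beside 40% and 36.9% of comparably bright genes. The median of the 16 was −0.07 against GSK-J5.

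The remaining pathway groups showed both directions, as did the comparably bright genes, with 40% below and 36.9% above all controls. Among 19 origin, firing and fork genes 6 lay below and 10 above all controls, with a median of 0.06 against GSK-J5. Mtbp, which acts with Ticrr at origin firing, was the highest at 10.53 against 9.89 to 10.07, followed by the helicase gene Recql4 (0.24) and the fork protection gene Timeless (0.23). Gmnn, geminin, the inhibitor of Cdt1, was the lowest at 9.15 against 9.37 to 9.50, next to the MCM-binding protein gene Mcmbp (−0.12) and Wdhd1, which couples polymerase alpha to the helicase (−0.12). Among 18 polymerase, single-strand binding and Okazaki genes 9 lay below and 3 above. Pold4, the small subunit of polymerase delta, was 0.35 above its controls, with the polymerase epsilon genes Pole (0.15) and Pole3 (0.04) next, and the topoisomerase genes Top1 (−0.26) and Top2a (−0.09) and the nuclease gene Dna2 (−0.21) were the lowest.

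In nucleotide metabolism 5 of 10 genes lay below and 2 above. Rrm2b, the p53-inducible small subunit of ribonucleotide reductase, read 7.84 in EB medium, 7.86 in DMSO, 7.99 in GSK-J5 and 8.24 in GSK-J4, 0.25 above the nearest control. Cad, which starts pyrimidine synthesis, was 0.20 above, and Shmt1, a serine hydroxymethyltransferase (−0.25), Nme1, a nucleoside diphosphate kinase (−0.23), and the dNTP hydrolase gene Samhd1 (−0.19) lay below. Of 9 chromatin replication genes 7 lay below, led by Uhrf1, which brings Dnmt1 to new DNA (−0.16), the histone chaperone gene Asf1a (−0.12) and Npat, a coactivator of histone genes (−0.11). The maintenance methyltransferase gene Dnmt1 (0.06) and the histone acetyltransferase gene Hat1 (0.03) lay above. Over all 72 genes 37 (51.4%) lay below and 21 (29.2%) above the controls, beside 40% and 36.9% of comparably bright genes and 36.3% and 30.6% of all genes. At 1.2-fold 5 of the 72 (6.94%) were higher, against 9.73% of the 13308 genes past the filter and 6.94% of comparably bright genes. On the low side there were 0, against 6.03% and 5.57%. This low count ranged from 0 to 4 over the normalizations tried. The comparably bright genes were set by the dimmest member, and some of the 72, such as Pold4 and Rbl2, were dimmer.

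G2 and mitosis genes, from a list of 32 with 31 measured, lay farther from the controls than the replication genes did. Of the 31, 26 (83.9%) were below all controls and 4 (12.9%) above, beside 40% and 36.9% of comparably bright genes. By 1.2-fold 6 (19.4%) were lower, beside 5.57% of comparably bright genes. Their median was −0.19 against GSK-J5, −0.19 against DMSO and −0.18 against EB medium. Plk1, a mitotic kinase, read 12.11 against 12.58 to 12.63, and the chromosomal passenger genes Aurkb (−0.30) and Incenp (−0.29) followed. Foxm1, a transcription factor of mitotic genes (0.17), Birc5, survivin (0.05), and the kinetochore gene Ndc80 (0.03) were the highest. The difference between the lists was not tested, since there is 1 array per treatment.

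**Figure D5:**
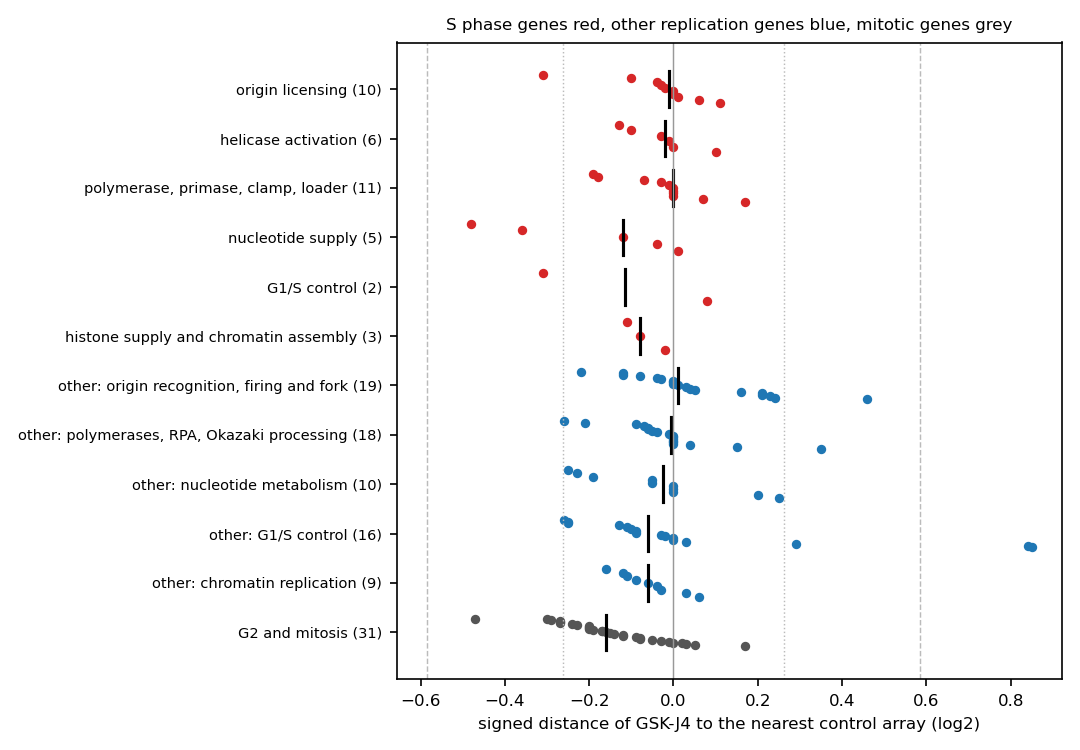
Signed log2 distance of GSK-J4 to the nearest control (x axis) for each gene of the member subgroups (red), other replication groups (blue) and G2 and mitosis genes (grey), with gene numbers in parentheses. Black bars are medians of these distances; dotted and dashed lines mark 1.2-fold and 1.5-fold. The points farthest to the right are Rb1 and Rbl2, and those farthest to the left Tk1 and Plk1.

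The arrays were close in overall distribution, with medians over all genes of 7.22 to 7.24. Of 9 stem cell markers 8 passed the filter on dim genes. Sox2 read 12.93 to 13.02 and Nanog 13.05 to 13.20, among the brighter of the 9. Esrrb had a mean level of 8.84, and Dppa5a, at 6.46, fell below the filter. Of the 9, 5 lay below all controls in GSK-J4 and 2 above, beside 36.3% and 30.6% of all 22180 genes. The median of the 9 was −0.05 against GSK-J5. Tdgf1, the Nodal co-receptor Cripto, was the lowest, 0.36 below the nearest control, and the transcription factor gene Klf4 was 0.25 above. Of 15 feeder fibroblast markers 10 passed. In GSK-J4 10 of the 15 lay below all controls and 1 above, beside the same 36.3% and 30.6% of all genes. The median level of the 15 was 7.06 in GSK-J4 and 7.10 to 7.23 in the controls. The median difference of the 15 was −0.25 against GSK-J5, −0.15 against DMSO and −0.10 against EB medium, farther from 0 than that of the members in each. These dim markers also differed more among the controls, with a median control range of 0.16 against 0.07 for the members. The levels of the 15 ran from 4.29 to 7.90: Thy1, Pdgfrb, Col1a1 and Col5a1 read 7.47 to 7.90, above the filter level, and Dcn, Lum and Postn 4.29 to 5.59, below it. The part of fibroblast RNA in the differences above was not tested.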

How the data were processed

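Total RNA of embryoid bodies was measured on 1 array per treatment. The deposited values are log2 expression, normalized by the authors; the submitters' processing notes name RMA and Affymetrix Expression Console 1.2.1.20. RMA gives arrays a common intensity distribution, so a shift shared by most genes would not be seen. No source used here states the log base, which was taken as 2 from the values (2.20 to 14.48). Scanner files were not used here, so no probe set could be called detected, and precision is limited by having 4 arrays.

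Of 41345 probe sets 23521 had a single symbol in the platform annotation, giving 22180 genes. The filter kept genes at or above the 40th percentile of mean level (6.59), 13308 in all. The distance to the nearest control is GSK-J4 minus the highest control where it lies above all 3, or minus the lowest where it lies below, and 0 otherwise. No p-value was computed. Only the 1.5-fold count was tested on simulated data, with shifts far larger than those of the members. The 1.2-fold and any-amount counts were not tested in this way. Alternatives were median centring, repeated quantile normalization, loess (span 0.3), the median over probe sets, other filters and leaving out each control array. All members could be named; from each further pathway or mitotic list up to 3 genes per direction by distance were named. Rbl1 and the cell type markers named were chosen after their values were seen. The members and lists were chosen with earlier results of these data known. Python 3.11.15, pandas 2.3.3, numpy 2.4.6 and statsmodels 0.14.6 were used.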

Additional observations from a re-analysis of the deposited data

How the results depend on the processing

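Of 548 comparisons between a group value as reported and the same value under an alternative, 531 stayed within the limits used: 1.5 times for a count, and for a median the typical SD of a listed gene over the 3 control arrays. This share says little about small values. Many counts were 1.5-fold counts of 0 with little room to change. The limit for the member medians, 0.035, was close to those medians, and a change of sign could stay within it. For the 37 members, the median against each control stayed between −0.05 and −0.03, with 22 or 23 members lower and 7 to 10 higher than the controls, in the settings run for each. The number lower by 1.2-fold was 4 in each except the median over probe sets (3, without Dut), and the 1.5-fold count was 0. Against DMSO the nucleotide supply median was −0.13 under loess, the histone supply and chromatin assembly median −0.13 under quantile normalization and −0.12 under loess (−0.08 as deposited), and that of chromatin replication genes −0.14 under quantile normalization and −0.16 with the median over probe sets (−0.09 as deposited). With loess 0 nucleotide supply genes stayed above the controls, and with the median over probe sets 1 of them was lower by 1.2-fold. For the 72 other replication genes the number lower by 1.2-fold was 0 as deposited, 2 after median centring, 4 after quantile normalization and 1 under loess. By list, quantile normalization gave 1 each among origin and fork genes, polymerase and Okazaki genes, nucleotide metabolism genes and other G1/S genes. Loess gave 1 among origin and fork genes, and median centring 1 among polymerase and Okazaki genes and 1 among other G1/S genes. The cause of these changes was not tested. As deposited, Top1 and Cdc25a lay at −0.26 and Shmt1, E2f8 and Skp2 at −0.25, near the log2 distance of 0.263 that 1.2-fold requires. No paired analysis was possible because each treatment has 1 array.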

Other observations

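Some replication genes differed as much among the controls as most members did between GSK-J4 and the controls. Prim1, the catalytic primase subunit, read 10.53 in EB medium, 10.62 in DMSO and 10.43 in GSK-J5, a control range of 0.19, and Pold1 spanned 0.19 as well, with its lowest value in DMSO. Gins3 spanned 0.16, with 10.66 in DMSO and 10.82 in GSK-J5. At the other end the controls of Pola2 and Mcm10 spanned 0.01 and those of Cdc6 and Tyms 0.02. The median control range of the 37 members was 0.07, against 0.09 for the 5508 comparably bright genes and 0.16 for all genes.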
